A study of Saccharomyces cerevisiae with 20 samples.

Results

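The 5′ UTR, or leader, is the stretch of an mRNA between its cap and its start codon. The members described here are the 1218 genes, of 3933 listed, whose 5′ UTR has a density in every one of the 20 samples. Density is the number of reads per base of the 5′ UTR divided by the average coverage of the coding sequence of the same gene, so a value of 1 means that both are covered equally. Length is divided out, but profiling density still went with coding length, as given below, so differences between genes can hold a part of it. Density rises when reads on the leader rise and when reads on the coding sequence fall, and the ratio alone cannot tell these apart. Of the other genes, 369 had no value and 2346 lacked some, and in those lines blanks stood only at the right end, so their values could not be assigned to samples. Completeness is a matter of abundance as well: the authors' mean signal over the profiling samples had a median of 1241 in the 1204 members with a listed mean. It was 332 over all 5778 genes with such a mean, and 227 among the 2715 genes with a listed 5′ UTR that were not complete.

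All cells were Saccharomyces cerevisiae of the BY4741 background. The control strain carried CDC33-HIS3, the normal gene for the cap-binding factor eIF4E linked to the HIS3 marker, and the mutant carried the temperature-sensitive allele cdc33-ts4-2-HIS3 with the same marker. Cultures were grown in YPD at 25°C and then split, and the parts were held for 1 h at 25°C or at 37°C. Cycloheximide was then added before harvest. The paper states that this drug can cause artifacts in ribosome profiling, and that values of whole genes appear little biased. Its effect on reads within leaders, at either temperature, was not tested. The labels do not say which samples came from the same culture. Ribosome profiling, which sequences the mRNA fragments that ribosomes shield from RNase, was done on 8 samples, 2 for each of the 4 combinations of strain and temperature, and RNA-seq on 12, 3 for each. The study describes the mutant protein as working at 25°C and being degraded at 37°C, and its level as lower than that of the normal factor even before the shift, so the mutant at 25°C is no baseline with full eIF4E.

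In yeast, as in other eukaryotes, the small ribosomal subunit is loaded near the cap and moves along the leader until it meets a start codon. Ribosomes that begin at a codon inside the leader translate an upstream open reading frame (uORF) and give profiling reads there, whereas RNA-seq reads on a leader show only that this part of the transcript is present. GCN4 is the classical case: its 4 short uORFs keep ribosomes from the main start codon until phosphorylation of eIF2 lets some pass them. In the mutant at the higher temperature, the paper reports de-repressed translation of this gene without more of that phosphorylation. ALA1 and GRS1, which encode the alanyl- and glycyl-tRNA synthetases, use codons other than ATG in their leaders to make a longer form for mitochondria.

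The upstream start codons of these 3 genes are shown because their leader reads can be set beside a known place where ribosomes start. Each line gives 30 bases, 5′ to 3′ on the strand of the gene, from the RefSeq R64 genome, with the upstream start codon in capitals.
GCN4 upstream ATG 1 (chrV:140107-140136, minus strand): gatcattgaaaaATGgcttgctaaaccgat
GCN4 upstream ATG 2 (chrV:140039-140068, minus strand): attaagagaattATGtgttaaatttattga
GCN4 upstream ATG 3 (chrV:139922-139951, minus strand): ccaattgctatcATGtacccgtagaatttt
GCN4 upstream ATG 4 (chrV:139897-139926, minus strand): attttattcaagATGtttccgtaacggtta
ALA1 upstream ACG (chrXV:949167-949196, minus strand): atttaagacaagACGacgtcaactaccgga
GRS1 upstream TTG (chrII:483419-483448, minus strand): tttcaagaaaaaTTGtcgttcttcaatatc
The GCN4 uORFs start 361, 293, 176 and 151 bases before the main start codon and run for 3, 2, 3 and 3 codons before their stop. The ACG of ALA1 lies 75 bases before its ATG and the TTG of GRS1 69 bases before its own, both in the reading frame of the protein and with no stop codon between.

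The main start codons of 5 genes whose leader density moved most, or in a way of its own, are given in the same form, with the annotated ATG in capitals.
GCN4 main start (chrV:139746-139775, minus strand): aatacaaataaaATGtccgaatatcagcca
ODC2 main start (chrXV:758318-758347, plus strand): catcaaagtaatATGtcatcagactcaaac
HTS1 main start (chrXVI:639002-639031, minus strand): gtctcttgcttaATGcttagtagatcacta
ATG40 main start (chrXV:618271-618300, minus strand): catagaaaactaATGtttaatttaatttta
HRP1 main start (chrXV:87832-87861, plus strand): gttaaataagcaATGagctctgacgaagaa
The leader lengths in the authors' feature table were 726 nt for GCN4, 509 nt for ODC2, 380 nt for HRP1, 117 nt for ALA1 and 45 nt for HTS1. The leader of ODC2 holds 9 ATG triplets and that of HRP1 none.

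The leaders of the 1218 genes were covered less than the coding sequences in both assays, and far less by ribosomes than by RNA-seq reads. Median density in the profiling samples was 0.0379 and 0.0508 in CDC33 cells at 25°C, 0.0772 and 0.1004 in CDC33 cells at 37°C, 0.0747 and 0.0672 in the mutant at 25°C, and 0.189 and 0.182 in the mutant at 37°C. The lowest values were those of CDC33 cells at 25°C and the highest those of the mutant at 37°C, and within each strain the groups at 25°C and 37°C did not overlap. In RNA-seq all 12 medians lay between 0.350 and 0.678, with no such order.

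**Figure D1:**
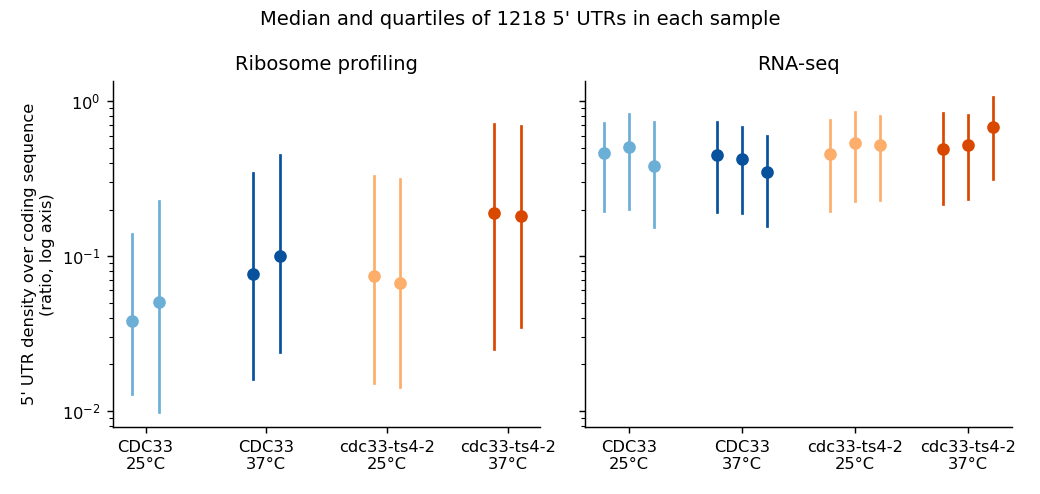
Median (point) and quartiles (line) of the density of 1218 5′ UTRs in each sample, on a log axis, by strain and temperature, for ribosome profiling on the left and RNA-seq on the right. Profiling medians run from 0.0379 in CDC33 cells at 25°C to 0.189 in the mutant at 37°C, and RNA-seq medians stay between 0.350 and 0.678.

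The profiling median was 2.29 times as high at 37°C as at 25°C over both strains (2.00 times in CDC33, 2.61 times in cdc33-ts4-2), with p = 0.0556 in a two-sided exact permutation test of the temperature labels within strain, the smallest p that the 36 arrangements allow. In RNA-seq the same ratio was 1.01 (0.909 in CDC33, 1.11 in cdc33-ts4-2; exact permutation p = 0.95 over 400 arrangements, of which the smallest possible is 0.005). The mutant's profiling median was 1.60 times that of CDC33 cells at 25°C and 2.09 times at 37°C (1.83 over both, exact permutation p = 0.0556, again the smallest possible). These 8 groups are small. The paper calls the samples of a group biological replicates, though nothing in the labels says that they came from separate cultures. Samples at 25°C and 37°C can share a culture, which the tests did not use. The p-values measure the spread between these samples.

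Other regions moved too. Over the 1167 genes that were also complete in the 3′ UTR table, median profiling density of the 3′ UTR was between 0.000234 and 0.00372 in all samples except those of the mutant at 37°C, where it was 0.00984 and 0.0170. Reads on the coding sequence, which form the denominator of both ratios, were not tested separately, and their part in the rise was not tested. In the authors' coverage along all genes, the third of the leader nearest the start codon had a mean coverage relative to the gene of 0.395 and 0.548 in CDC33 cells at 25°C, 0.732 and 0.849 at 37°C, 0.680 and 0.700 in the mutant at 25°C, and 0.997 and 1.06 at 37°C. That series-wide average had the same order of groups as the median of the 1218 members. By RNA-seq, the third farthest from the start codon had 0.397 to 0.441 in the mutant at 25°C and 0.505 to 0.639 at 37°C. In CDC33 cells it had 0.393 to 0.417 at 25°C and 0.321 to 0.364 at 37°C. In the third nearest the start codon the temperatures overlapped in both strains by RNA-seq.

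Few leaders carried more ribosomes per base than their own coding sequence, and their number followed the same order. Densities over 1 were found for 25 and 48 genes in the samples of CDC33 cells at 25°C, 109 and 131 at 37°C, 95 and 88 in the mutant at 25°C, and 233 and 211 at 37°C. In both replicates of a group, 24 genes passed 1 in CDC33 cells at 25°C, 100 at 37°C, 81 in the mutant at 25°C and 182 at 37°C. At the other end, between 68 and 181 genes were listed at 0 in a profiling sample, 307 were at 0 in at least 1 of the 8, 16 in all 8, and 11 in all 20 samples of both assays.

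Most of the highest leaders stayed high in both strains and at both temperatures. The 8 genes with the highest mean log2 density in profiling were MNR2, GCN4, GCN2, SEN1, PMD1, IRA2, ROY1 and PLB3. MNR2, a vacuolar magnesium transporter, had 4.08 and 6.49 in CDC33 cells at 25°C, 4.07 and 4.25 at 37°C, 4.23 and 4.68 in the mutant at 25°C, and 4.26 and 5.75 at 37°C, with little between the groups. GCN2, the kinase that phosphorylates eIF2 when uncharged tRNA accumulates, had 4.88 and 7.75, then 4.54 and 4.12, then 3.71 and 4.52, then 3.96 and 2.62 in the same order of groups. IRA2, a negative regulator of Ras, ran from 2.00 to 5.14 by profiling while its 12 RNA-seq values stayed between 0 and 0.330.

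Density was over 1 in all 8 profiling samples for 20 genes (ADR1, ALY2, DUF1, ENT2, GCN2, GRR1, HER1, IRA2, KIN1, MNR2, PEP1, PMD1, PPQ1, PSK1, PTP2, ROM2, ROY1, SEN1, SSK1 and UBR1). GCN2, KIN1 and PSK1 are protein kinases, PTP2 is a protein phosphatase, SSK1 and ROM2 act in osmotic and cell wall signalling, and GRR1 and UBR1 belong to ubiquitin ligases. These genes were long, with a median coding length of 3598.5 bases against 1449 over all members, and 4 of the 20 had an ATG in the 100 bases before the start codon. GCN4 and PLB3 are among the 8 highest on average but not in this list, because GCN4 fell below 1 in the mutant at 37°C and PLB3 in CDC33 cells at both temperatures, at 0.756 in 1 sample at 25°C and at 0.304 and 0.574 at 37°C.

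PLB3, a phospholipase B, differed between the strains. Its profiling density was 0.756 and 2.15 in CDC33 cells at 25°C, 0.304 and 0.574 at 37°C, 13.6 and 14.5 in the mutant at 25°C, and 8.60 and 6.24 at 37°C. Every sample of the mutant lay above every sample of CDC33 cells. The difference at 25°C was 3.45 ± 0.58 on the log2 scale (SE), with an adjusted p of 0.0782 in limma with Benjamini-Hochberg adjustment over the 1218 genes, which does not pass 0.05. In RNA-seq PLB3 rose in the mutant from 1.56, 1.35 and 1.80 at 25°C to 6.04, 5.27 and 6.93 at 37°C (log2 change 1.95 ± 0.21, adjusted p = 0.000554).

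The lowest leaders that held reads in every sample were those of ribosomal proteins. RPL23B had profiling densities from 0.000397 to 0.00162, RPS19B from 0.000271 to 0.00153, RPS30B from 0.000349 to 0.00250 and RPL31A from 0.000716 to 0.00227. Over the 77 members that encode cytosolic ribosomal proteins the median density was 0.00767 by profiling and 0.0821 by RNA-seq, against 0.106 and 0.520 over all 1218. Many of these genes have an intron or a near-identical copy elsewhere in the genome, and only uniquely mapped reads were counted, so their values are less certain than those of single genes. The 92 members with 2 or more coding exons had a median profiling density of 0.0154 against 0.118 in the 1123 with 1.

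A set of 14 gene groups, fixed with earlier results of these data known, spans translation, metabolism and stress. By profiling, the group medians below that of all members were those of the ribosomal proteins, glycolysis and fermentation (0.0396, 13 genes), the cell wall (0.0441, 16 genes), aminoacyl-tRNA synthetases (0.0446, 19 genes), elongation and termination factors (0.0450, 9 genes), initiation factors (0.0467, 15 genes), proteasome subunits (0.0850, 19 genes) and heat shock chaperones (0.0852, 17 genes). Above it were leaders with regulatory uORFs (0.782, 6 genes), upstream non-ATG starts (0.560, 2 genes), leaders reported to act without a cap or to bind a protein (0.411, 4 genes), oxidative phosphorylation (0.138, 15 genes), amino acid synthesis (0.113, 37 genes) and general stress genes (0.110, 14 genes). The spread between groups was far smaller by RNA-seq, where apart from the ribosomal proteins their medians lay between 0.341 and 0.815.

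Leaders rose together when cells were moved to 37°C. In cdc33-ts4-2 cells 205 5′ UTRs rose and 4 fell by profiling at an adjusted p of 0.05 or less, which is 17.2% of the 1218 tested (limma on log2 of density plus 0.01, Benjamini-Hochberg adjustment), and 984 lay above 0 with a median log2 change of 0.80. In CDC33 cells 164 rose and 6 fell, 14% of those tested, with 945 above 0 and a median of 0.73. Because the change is shared by most genes, a gene's call depends on the reference. With each sample's median of log2(density + 0.01) subtracted, 25 rose and 216 fell in the mutant, and 8 rose and 8 fell in CDC33 cells. The median change over the genes was then −0.47 in the mutant and −0.13 in CDC33 cells. The subtracted sample medians thus rose by more than the median gene did, and the falls in the mutant are in part this offset.

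With 2 samples a group, these counts moved widely with the library left out. This held also for libraries of the other strain, since all profiling groups share 1 estimate of the spread. The median log2 change over all genes stayed between 0.80 and 0.85 in the mutant and between 0.54 and 0.91 in CDC33 cells. Leaving out a mutant library took the calls in cdc33-ts4-2 cells from 209 to 1 (25°C, replicate 1), 0 (25°C, replicate 2), 1 (37°C, replicate 1) and 53 (37°C, replicate 2), and leaving out a CDC33 library took them to 328 and 327 (25°C, replicates 1 and 2) and 117 and 109 (37°C, replicates 1 and 2). In CDC33 cells the 170 calls became 73 and 293 without replicate 1 or 2 at 25°C, 12 and 6 without replicate 1 or 2 at 37°C, 8 and 7 without the mutant's replicates at 25°C, and 32 and 28 without the mutant's replicates at 37°C.

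**Figure D2:**
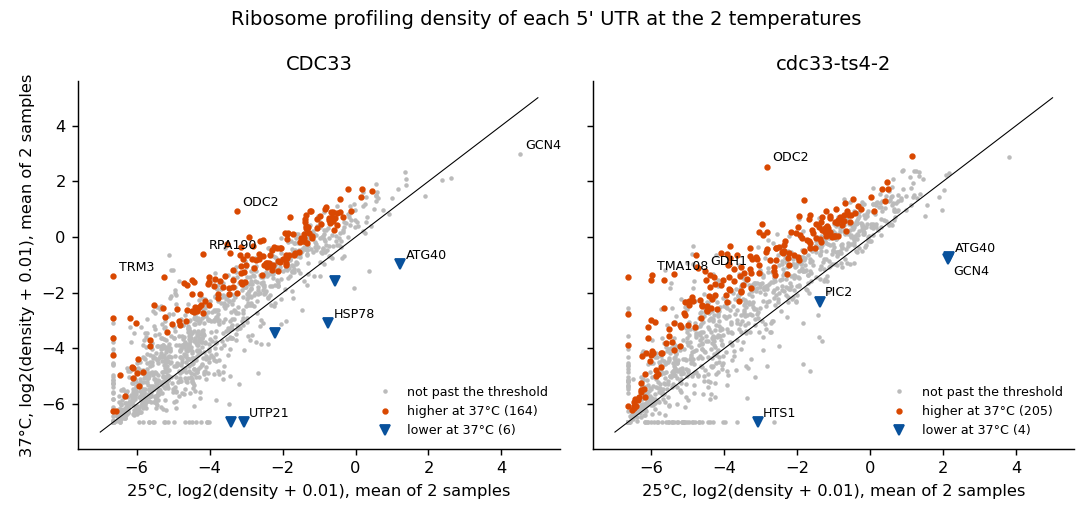
Each point is 1 of 1218 5′ UTRs, with its mean log2(density + 0.01) over 2 profiling samples at 25°C (x axis) and at 37°C (y axis), for CDC33 cells on the left and cdc33-ts4-2 cells on the right; the line marks equal values. Orange points rose (164 and 205) and blue triangles fell (6 and 4) at an adjusted p of 0.05 or less, and most grey points also lie above the line.

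The lists of calls overlapped in part. In simulated data, where 1018 of 1218 genes did not change, the profiling test recovered 18% of genes given a log2 change of 1 and 50% of those given 2. Most leaders rose in the real data, so these rates need not hold there. Such a test can miss changes, and the calls moved with the library left out, so the overlap of the lists cannot tell how far the rise was shared. Of the leaders called as higher at 37°C, 82 were called in both strains, 40% of the mutant's and 50% of those of CDC33 cells, and ATG40 was the one called as lower in both. A test of the difference between the strains' changes called 3 genes (0.246% of 1218), UTP21, IDP1 and MCY1, and its median over all genes was 0.05 on the log2 scale, while 131 had an unadjusted p below 0.05. The count was 1 without either mutant sample at 25°C, 6 without replicate 1 of CDC33 cells at 25°C and 5 without their replicate 1 at 37°C.

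ODC2, a mitochondrial carrier of oxodicarboxylates, had the largest increase in the mutant on the log2(density + 0.01) scale. With 0.001 added in place of 0.01, the increases of RTT10, CCA1, TMA108, DRE2 and STT4, among the genes named, were larger, and each had at least 1 mutant sample listed at 0 at 25°C. Its profiling density was 0.0545 and 0.162 in CDC33 cells at 25°C, 1.31 and 2.71 at 37°C, 0.130 and 0.131 in the mutant at 25°C, and 6.73 and 4.91 at 37°C. All 4 samples at 37°C lay above all 4 at 25°C, and the mutant's were the highest. The log2 change was 5.36 ± 0.56 in the mutant (adjusted p = 0.0127) and 4.17 ± 0.56 in CDC33 cells (adjusted p = 0.0227).

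The RNA of the ODC2 leader moved as well. Its RNA-seq density was 0.311, 0.253 and 0.533 in CDC33 cells at 25°C, 2.11, 1.74 and 2.83 at 37°C, 0.852, 1.06 and 0.745 in the mutant at 25°C, and 16.0, 19.4 and 16.6 at 37°C. Leader reads thus exceeded those on the coding sequence at 37°C in both strains, without overlap with 25°C. The RNA change was 4.28 ± 0.28 in the mutant (adjusted p = 2.39e-05) and 2.62 ± 0.28 in CDC33 cells (adjusted p = 0.00143), and the change by profiling beyond that of RNA did not pass the test in either strain (1.07, adjusted p = 0.205, and 1.55, adjusted p = 0.0613).

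TNA1, the high-affinity nicotinic acid permease, rose with temperature in both assays. By profiling its density went from 0.0230 and 0.0394 to 0.264 and 0.329 in CDC33 cells and from 0.0282 and 0.0250 to 0.925 and 0.423 in the mutant. By RNA-seq it went from between 0.0315 and 0.0519 at 25°C in either strain to between 0.368 and 0.404 at 37°C in CDC33 cells and between 0.156 and 0.243 in the mutant. At 37°C the mutant thus lay above CDC33 cells by profiling and below them by RNA-seq. All 4 of its changes passed the test, with log2 values of 2.92 and 4.12 by profiling and 2.90 and 2.21 by RNA-seq in CDC33 and mutant cells.

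Other leaders rose in the mutant by profiling with little change of their RNA. DRE2, needed for the assembly of cytosolic iron-sulphur clusters, went from 0 and 0.0142 to 0.345 and 0.327 (log2 change 4.47, adjusted p = 0.014), and HOC1, a Golgi mannosyltransferase, from 0.0143 and 0.0137 to 0.449 and 0.338 (4.06, adjusted p = 0.0312). ARX1, an export factor of the large ribosomal subunit, went from 0.0573 and 0.0113 to 0.643 and 0.321 (3.62, adjusted p = 0.0363). Their RNA-seq changes in the mutant were 0.40, 0.04 and 0.20 on the log2 scale, with adjusted p-values of 0.384 or more. The sizes for leaders with a sample listed at 0 depend on the constant added: the log2 change of DRE2 was 2.03 with 0.1 and 6.43 with 0.001. TMA108, a ribosome-associated protein, went from 0 and 0.0150 to 0.297 and 0.480 and STT4, a phosphatidylinositol 4-kinase, from 0.0292 and 0 to 0.297 and 0.383, and neither passed the test with 0.001 added (adjusted p = 0.0558 and 0.133).

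RTT10, CCA1 and SEC27 show 2 limits of such ratios. RTT10, which takes part in tRNA methylation, was listed at 0 in both mutant samples at 25°C and at 0.315 and 0.405 at 37°C, so no fold is given although its adjusted p was 0.013. CCA1, which adds CCA to tRNA ends, was likewise listed at 0 in both and at 0.213 and 0.0875 at 37°C (adjusted p = 0.0363). SEC27, a subunit of the COPI coat, rose from 0.0206 and 0.0348 to 0.548 and 0.398 in the mutant (log2 change 3.69, adjusted p = 0.0127) while its leader was listed at 0 in all 12 RNA-seq samples, as were those of APT1 and LYS2. For these 3 genes profiling reads lie where the RNA-seq table lists none.

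Leaders that fell at 37°C were few. GCN4 had profiling densities of 17.9 and 28.5 in CDC33 cells at 25°C, 9.24 and 6.59 at 37°C, 5.10 and 3.75 in the mutant at 25°C, and 0.620 and 0.533 at 37°C. The 4 groups did not overlap and stood in that order, and of the 4 only the mutant at 37°C had a leader covered less than the coding sequence. The paper reports that ribosome coverage of the main reading frame of this gene increased only in the mutant at the higher temperature. It describes that increase as one relative to the uORFs as well. The ratio alone cannot tell whether leader reads also fell there, nor which reads moved in CDC33 cells. The log2 change was −2.90 ± 0.39 in the mutant (adjusted p = 0.0157) and −1.53 ± 0.39 in CDC33 cells (adjusted p = 0.0546), and the difference between them was −1.37 ± 0.55 (adjusted p = 0.458). Its RNA-seq density lay between 0.468 and 0.774 in all 12 samples, and the change by profiling beyond that of RNA was −2.86 ± 0.34 in the mutant (adjusted p = 0.000227) and −1.37 ± 0.34 in CDC33 cells (adjusted p = 0.0101). That test takes 1 spread from both assays, so its error is smaller than the 0.39 of profiling alone. Its pass in CDC33 cells, where profiling alone did not pass, rests on that shared spread.

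ATG40, a receptor for autophagy of the endoplasmic reticulum, fell in both strains. By profiling it had 1.53 and 3.57 in CDC33 cells at 25°C, 0.441 and 0.565 at 37°C, 4.71 and 4.30 in the mutant at 25°C, and 0.592 and 0.608 at 37°C. All samples at 37°C lay below all samples at 25°C. The log2 change was −2.89 ± 0.41 in the mutant (adjusted p = 0.0188) and −2.21 ± 0.41 in CDC33 cells (adjusted p = 0.0321), while RNA density fell by 0.74 in CDC33 cells (adjusted p = 0.0463) and changed by −0.04 in the mutant (adjusted p = 0.974).

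HTS1 and PIC2 fell in the mutant. HTS1 encodes the histidyl-tRNA synthetase of both compartments, the mitochondrial form starting at the annotated ATG and the cytosolic one further in. Its profiling density was 0.161 and 0.0715 in the mutant at 25°C and was listed at 0 in both samples at 37°C (adjusted p = 0.0191, no fold given), while CDC33 cells had 0.0284 and 0.0439 at 25°C and 0.0539 and 0.0272 at 37°C, which overlap. PIC2, a mitochondrial carrier of phosphate and copper, had 0.449 and 0.309 at 25°C and 0.180 and 0.200 at 37°C (log2 change −0.94, adjusted p = 0.0495).

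Besides ODC2, the named increases in CDC33 cells were those of RPA190, TRM3, APM1 and TRS120. RPA190, the largest subunit of RNA polymerase I, had 0.0482 and 0.0431 at 25°C and 0.666 and 0.628 at 37°C (log2 change 3.56 ± 0.36, adjusted p = 0.0148), and 0.166 and 0.0729 then 1.13 and 1.10 in the mutant (3.22 ± 0.36, adjusted p = 0.0127). Its RNA-seq density did not move with temperature, with log2 changes of 0.00 and 0.07. TRM3, a tRNA methyltransferase, and APM1, a clathrin adaptor subunit, were listed at 0 in both CDC33 samples at 25°C and at 0.359 and 0.378, and 0.110 and 0.142, at 37°C. TRS120, of a Golgi tethering complex, was at 0.0591 and 0 and then at 0.257 and 0.492 (adjusted p = 0.0483). With 0.001 added, APM1 and TRS120 did not pass the test (adjusted p = 0.0564 and 0.0974).

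HSP78 and ATG19 fell in CDC33 cells by profiling. HSP78, the mitochondrial disaggregase of the heat shock response, had 0.489 and 0.700 at 25°C and 0.143 and 0.0788 at 37°C (log2 change −2.35 ± 0.35, adjusted p = 0.0236), and 0.378 and 0.347 then 0.159 and 0.112 in the mutant (−1.37, adjusted p = 0.0523). ATG19, a receptor that carries enzymes to the vacuole, had 0.210 and 0.200 and then 0.0753 and 0.0871 (−1.24, adjusted p = 0.046), whereas the mutant had 0.676 and 0.599 and then 0.393 and 0.664, which overlap. UTP21 and IDP1 were listed at 0 in both CDC33 samples at 37°C. With 0.1 added, ATG19 and UTP21 did not pass (adjusted p = 0.0897 and 0.0653).

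The strains at 25°C were set side by side to see what the allele does before the shift. TRM3, CDC27 and BFR1 were higher in the mutant and IDP1 lower, 4 leaders or 0.328% of 1218, while the median over all genes was 0.46 on the log2 scale and 313 had an unadjusted p below 0.05. BFR1, an mRNA-associated protein, had 0.250 and 0.262 in CDC33 cells and 0.869 and 0.842 in the mutant (log2 difference 1.70 ± 0.14, adjusted p = 0.0132), and CDC27, a subunit of the anaphase-promoting complex, 0.0968 and 0.105 against 1.04 and 0.816 (3.07 ± 0.27, adjusted p = 0.0132). TRM3 was listed at 0 in CDC33 cells and IDP1 in mutant cells. This count moved widely with the library left out. The median log2 difference was 0.65 without replicate 2 of CDC33 cells at 25°C and 0.29 without replicate 1. Without the mutant's replicates 1 and 2 at 25°C it was 0.48 and 0.51.

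The leaders with known upstream starts did not move as one. Of the 6 members with regulatory uORFs, GCN4 fell and 0 rose in the mutant by limma, against 16.8% of all members called as higher. Of the 6, 3 had an unadjusted p below 0.05, and the median log2 change was 0.22, against 0.80 over all members. In CDC33 cells SCH9 rose (16.7%, against 13.5% over all), with a median of 1.07 against 0.73. Counts among 6 genes are too small to be set apart from those shares. SCH9, a kinase that controls growth, had 0.185 and 0.340 at 25°C and 1.03 and 1.18 at 37°C in CDC33 cells (log2 change 2.09, adjusted p = 0.0227), then 0.735 and 0.776 and 1.45 and 1.42 in the mutant (0.92, adjusted p = 0.0753). YAP1, TIF4631, LEU4 and HOL1 did not pass the test in either strain, with log2 changes of 0.41, −0.44, 1.34 and 0.03 in the mutant and 0.79, 1.56, 1.35 and 0.76 in CDC33 cells.

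Both leaders with non-ATG starts were called as higher in both strains. Over all members the share called as higher was 16.8% in the mutant and 13.5% in CDC33 cells, with median log2 changes of 0.80 and 0.73. ALA1 had 0.115 and 0.197 in CDC33 cells at 25°C, 0.595 and 0.542 at 37°C, 0.439 and 0.465 in the mutant at 25°C, and 1.17 and 1.10 at 37°C. GRS1 had 0.148 and 0.200, then 0.472 and 0.570, then 0.476 and 0.477, then 1.01 and 0.984 in the same order. The 2 leaders held nearly the same density in every group, with the lowest in CDC33 cells at 25°C, the highest in the mutant at 37°C, and the other groups close together between them. Their log2 changes were 1.31 and 1.05 in the mutant (adjusted p = 0.0331 and 0.0312) and 1.84 and 1.54 in CDC33 cells (adjusted p = 0.0227 for both), and RNA density passed no test. With each sample's median subtracted, GRS1 had −0.22 in the mutant. Over the alternative settings the change of ALA1 in the mutant was as low as 0.036.

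**Figure D3:**
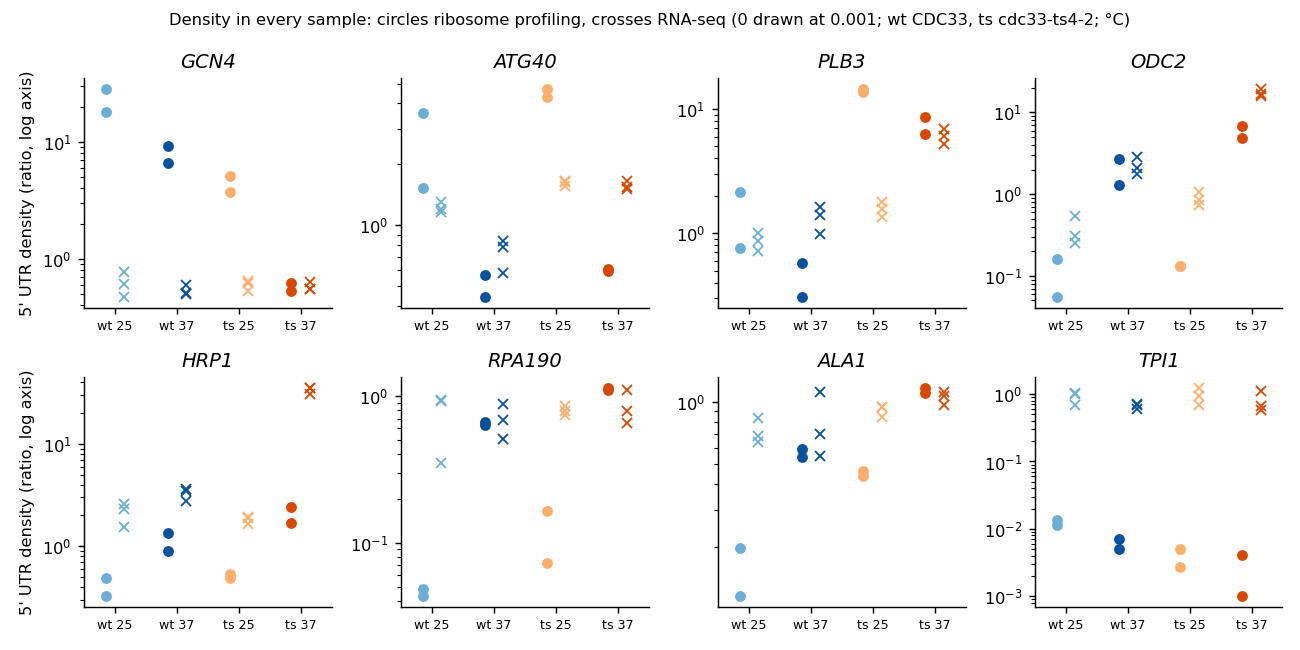
5′ UTR density of 8 genes in every sample on log axes, each panel with its own scale (circles ribosome profiling, 2 a group; crosses RNA-seq, 3 a group; wt is CDC33, ts is cdc33-ts4-2, with the temperature in °C). GCN4 falls from 28.5 to 0.533 by profiling while its RNA-seq values stay between 0.468 and 0.774, and ODC2 rises in both assays; the value of 0 for TPI1 is drawn at 0.001.

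Among leaders reported to work without a cap or to bind a protein, URE2 rose in CDC33 cells from 0.334 and 0.449 to 0.896 and 0.802 (log2 change 1.11, adjusted p = 0.0295). It had 0.722 and 0.750, then 1.04 and 0.976, in the mutant (0.45, adjusted p = 0.143). URE2 represses genes of nitrogen use and its mRNA holds an internal start. NCE102, GPR1 and PAB1 did not pass, with changes of 1.45, 1.47 and 1.34 in the mutant and 1.34, 1.34 and 0.91 in CDC33 cells.

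Genes of amino acid synthesis rose in 9 of 37 members in the mutant (24.3%, against 16.8% of all members called as higher) and in 7 of 37 in CDC33 cells (18.9%, against 13.5%), with medians of 1.25 and 1.03 on the log2 scale against 0.80 and 0.73. GDH1, the glutamate dehydrogenase that assimilates ammonium, had 0.0322 and 0.0338 in the mutant at 25°C and 0.396 and 0.451 at 37°C (log2 change 3.33 ± 0.29, adjusted p = 0.0127), and 0.0367 and 0.0388 then 0.189 and 0.144 in CDC33 cells (1.87, adjusted p = 0.0236). PRO1, of proline synthesis, went from 0.0792 and 0.104 to 0.724 and 0.791 in the mutant (2.92, adjusted p = 0.0202), and CYS4, which makes cystathionine, from 0.0176 and 0.0268 to 0.177 and 0.210 (2.67, adjusted p = 0.0161). RNA-seq changes of these 3 leaders in the mutant were 0.38, −0.51 and 0.33 and passed no test.

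Ribosomal protein leaders rose in 14 of 77 members in the mutant (18.2%, against 16.8% over all) and in 2 in CDC33 cells (2.60%, against 13.5%), with medians of 0.27 and 0.04. Their low densities lie near the 0.01 added before taking logs, which holds such changes down. RPS6B had 0.0216 and 0.0309 and then 0.0938 and 0.0992 in the mutant (log2 change 1.57, adjusted p = 0.0399), RPL23A 0.0160 and 0.0175 and then 0.0563 and 0.0579 (1.33, adjusted p = 0.0331), and RPS25B 0.00706 and 0.00832 and then 0.0230 and 0.0235 (0.91, adjusted p = 0.0196). In each the groups did not overlap.

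Translation factors and tRNA synthetases are set beside all members, of which 16.8% were called as higher in the mutant and 13.5% in CDC33 cells, with medians of 0.80 and 0.73. Of 15 initiation factors 3 rose in the mutant (20%) and 1 in CDC33 cells (6.67%), with medians of 1.34 and 0.67 on the log2 scale. Of 9 elongation and termination factors 3 rose (33.3%) and 0 (0%; by limma, with 2 at an unadjusted p below 0.05), with medians of 0.93 and 0.58. Of 19 aminoacyl-tRNA synthetases 4 rose (21.1%) and HTS1 fell in the mutant while 2 rose in CDC33 cells (10.5%), with medians of 1.14 and −0.17. TIF6, which keeps the ribosomal subunits apart, rose in both strains, from 0.0488 and 0.0454 to 0.134 and 0.286 in CDC33 cells (log2 change 1.85, adjusted p = 0.0408) and from 0.177 and 0.141 to 0.892 and 0.625 in the mutant (2.17, adjusted p = 0.0303). GCD11, the gamma subunit of eIF2, went from 0.00498 and 0.00421 to 0.0826 and 0.0615 in the mutant (2.48, adjusted p = 0.0435) and GCD7, a subunit of eIF2B, from 0.0686 and 0.0443 to 0.171 and 0.210 (1.61, adjusted p = 0.0475).

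TEF2, EFT2 and EFB1 were the elongation factors that rose in the mutant, by 1.73, 1.58 and 0.88 on the log2 scale (adjusted p = 0.0331, 0.0423 and 0.0243). They encode eEF1A, eEF2 and the exchange factor of eEF1A, and TEF2 and EFT2 have near-identical copies, so unique reads may miss part of them. TEF2 RNA density rose as well, from 0.364, 0.498 and 0.377 to 0.873, 1.07 and 1.25 (1.34, adjusted p = 0.00212). THS1 and SES1, the threonyl- and seryl-tRNA synthetases, rose in the mutant by 1.58 and 1.95 (adjusted p = 0.0164 and 0.043), with −0.41 and 0.01 in CDC33 cells.

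CDC33 itself, whose protein is the factor under study, had leader densities of 0.0174 and 0.0352 in CDC33 cells at 25°C, 0.0550 and 0.0604 at 37°C, 0.0370 and 0.0253 in the mutant at 25°C, and 0.0845 and 0.0584 at 37°C. Samples at 37°C lay above those at 25°C in each strain, but the changes of 0.94 and 0.98 on the log2 scale did not pass the test (adjusted p = 0.188 and 0.156). The allele differs within the coding sequence, so this value is no check of the strain labels.

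No leader of glycolysis and fermentation passed the test in either strain by limma with Benjamini-Hochberg adjustment (13 genes, medians 0.42 and 0.12, with 4 and 3 at an unadjusted p below 0.05), and of 17 heat shock chaperones 2 rose in the mutant (11.8%, against 16.8% over all, median 0.56) and 1 rose and HSP78 fell in CDC33 cells (5.88% higher, against 13.5%, median 0.16). KAR2, the chaperone of the endoplasmic reticulum, rose in the mutant from 0.00953 and 0.0327 to 0.148 and 0.136 (log2 change 2.39, adjusted p = 0.0363) and had −0.69 in CDC33 cells (adjusted p = 0.385), and SSE1, a nucleotide exchange factor of Hsp70, rose by 1.57 (adjusted p = 0.0338). Of 19 proteasome subunits 2 rose in the mutant (10.5%, against 16.8% over all, median 0.71) and 0 by limma in CDC33 cells (against 13.5%, median 0.59, with 4 at an unadjusted p below 0.05). They were PRE7 at 2.29 (adjusted p = 0.0303) and RPT5 at 1.65 (adjusted p = 0.0392). PIR1, a cell wall protein, rose in both strains, from 0.0121 and 0.0222 to 0.0998 and 0.159 in CDC33 cells and from 0.0661 and 0.0724 to 0.594 and 0.674 in the mutant (2.36 and 3.02, adjusted p = 0.0236 and 0.0127).

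General stress genes gave 2 increases of 14 in the mutant (14.3%, against 16.8% over all) and 1 in CDC33 cells (7.14%, against 13.5%), with medians of 0.42 and 0.63. SDS23 rose in both, by 1.53 and 1.52 on the log2 scale (adjusted p = 0.0401 and 0.046), and TPS2, the phosphatase of trehalose synthesis, rose in the mutant from 0.658 and 0.922 to 2.35 and 1.95 (1.45, adjusted p = 0.0498). Oxidative phosphorylation gave 3 of 15 in each strain (20%, against 16.8% in the mutant and 13.5% in CDC33 cells), with medians of 0.73 and 0.91, among them SDH1, a subunit of succinate dehydrogenase, at 1.20 in the mutant and 1.43 in CDC33 cells (adjusted p = 0.0459 and 0.0369).

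By RNA-seq, leader density changed at few genes. In the mutant 44 rose and 2 fell at 37°C, 3.78% of 1218, with a median of 0.13 on the log2 scale, and in CDC33 cells 4 rose and 3 fell, 0.575%, with a median of −0.10. The difference between the strains' changes had a median of 0.25, with 840 leaders above 0 and 341 below. With each sample's median subtracted, 26 rose and 4 fell in the mutant. ODC2, TNA1 and RPS30B were called as higher in both strains, and 14 leaders of the mutant were called as higher by profiling and by RNA-seq, which is 6.83% of the first and 31.8% of the second. Without replicate 1 of mutant cells at 25°C the count in the mutant was 30, and in CDC33 cells it was 4 without replicate 2 or 3 of the mutant at 25°C, replicate 1 of the mutant at 37°C, or replicate 3 of CDC33 cells at either temperature.

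HRP1 had the highest RNA-seq densities in the mutant at 37°C. The gene encodes an RNA-binding protein that acts in cleavage and polyadenylation. Its RNA density was 1.54, 2.31 and 2.57 in CDC33 cells at 25°C, 2.78, 3.61 and 3.43 at 37°C, 1.91, 1.92 and 1.67 in the mutant at 25°C, and 35.3, 30.8 and 35.2 at 37°C. The 3 samples of the mutant at 37°C stood apart from the other 9, which lay below 4. The log2 change was 4.20 ± 0.26 in the mutant (adjusted p = 2.39e-05) against 0.64 ± 0.26 in CDC33 cells (adjusted p = 0.398), and the difference was 3.56 ± 0.37 (adjusted p = 0.00265).

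By profiling HRP1 rose less, from 0.539 and 0.486 to 1.68 and 2.43 in the mutant (log2 change 1.96, adjusted p = 0.0258) and from 0.324 and 0.492 to 0.897 and 1.36 in CDC33 cells (1.44, adjusted p = 0.046). The change by profiling was thus below that of RNA in the mutant, by −2.24 ± 0.36 (adjusted p = 0.00158).

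PHB1, SEN1 and ARG56 also rose by RNA-seq in the mutant. PHB1, a prohibitin of the inner mitochondrial membrane, went from 0.177, 0.177 and 0.161 to 2.08, 2.07 and 1.41 (log2 change 3.34, adjusted p = 2.68e-05) while its profiling density stayed between 0.00423 and 0.0215 in the mutant. SEN1, a helicase of transcription termination, went from 1.11, 0.678 and 0.620 to 6.53, 5.54 and 4.76 (2.82, adjusted p = 0.00259), and its profiling density, over 1 throughout, changed by 0.13. The leader of ARG56, an enzyme of arginine synthesis, was listed at 0 in all 3 samples at 25°C and at 0.412, 0.542 and 0.593 at 37°C (adjusted p = 0.0104).

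Falls of RNA density were named for 5 genes. NAB3, an RNA-binding protein of transcription termination, went from 1.02, 0.904 and 0.990 to 0.306, 0.375 and 0.352 in the mutant (log2 change −1.47, adjusted p = 0.0203), and SFK1 from 0.679, 0.785 and 0.867 to 0.376, 0.279 and 0.418 (−1.11, adjusted p = 0.0183). In CDC33 cells DOT6, a repressor of ribosome biogenesis genes, fell from 1.19, 1.22 and 0.921 to 0.425, 0.365 and 0.303 (−1.58, adjusted p = 0.0042), and RAP1, a transcription factor of ribosomal protein genes, from 1.15, 1.23 and 0.851 to 0.336, 0.362 and 0.352 (−1.58, adjusted p = 0.00143). ATG40 is the fifth. The profiling density of NAB3 and DOT6 in the same cells had log2 changes of 0.97 and 1.06 that did not pass the test, and RAP1 was listed at 0 in both CDC33 samples at 25°C by profiling and at 0.0180 and 0.183 at 37°C.

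Between the assays, density was lower by profiling at 921 leaders and higher at 135, or 86.7% of 1218 in either direction, with a median difference of −1.88 on the log2 scale over the 4 groups. With each sample's median subtracted, 612 were higher and 358 lower, but the median difference was then 0.47, so these counts hold an offset. Across genes the mean log2 densities of the assays had a Spearman correlation of 0.59 over 1218 genes, which share libraries and the length of the same leader and are not independent replicates.

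**Figure D4:**
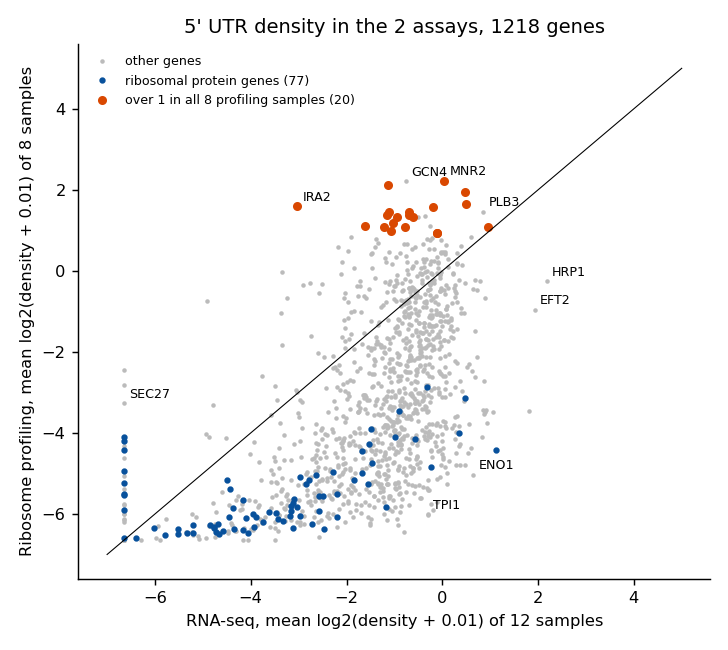
Mean log2(density + 0.01) of 1218 5′ UTRs over 12 RNA-seq samples (x axis) and 8 profiling samples (y axis); the line marks equal values. Most genes lie below the line, the 77 ribosomal protein genes (blue) at its lower end, and the 20 genes over 1 in all 8 profiling samples (orange) above it; the column of points at the left edge is genes listed at 0 by RNA-seq.

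The leaders of glycolytic genes TPI1 and ENO1 were covered by RNA-seq reads and hardly by ribosomes. TPI1, triose phosphate isomerase, had profiling densities of 0 to 0.0134 against RNA-seq densities of 0.582 to 1.23 (log2 difference −5.71 ± 0.15, adjusted p = 5.33e-13), and ENO1, an enolase with a near-identical paralog, 0.00473 to 0.0427 against 0.981 to 2.08 (−5.67, adjusted p = 6.31e-12). HRI1, EMP47 and CRN1 had differences of −5.73, −5.70 and −5.64 with several profiling samples listed at 0. Higher by profiling were IRA2 (4.62, adjusted p = 1.06e-05), SEC7, an exchange factor of Arf (2.76, adjusted p = 0.000241), and UBR1, the ubiquitin ligase of the N-degron pathway (2.74, adjusted p = 4.14e-06), besides GCN4 (2.97, adjusted p = 1.09e-11).

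The change of profiling density with temperature, less that of RNA, was higher at 203 leaders and lower at 24 in the mutant (18.6% of 1218, median 0.64) and higher at 325 and lower at 10 in CDC33 cells (27.5%, median 0.81). These tests share 1 estimate of the spread between the assays, which may understate the spread of profiling. With such a shared estimate the calls by profiling alone were 467 in the mutant and 404 in CDC33 cells, against 209 and 170. With each sample's median subtracted these became 29 and 199 in the mutant and 41 and 93 in CDC33 cells. The medians over the genes were then −0.49 and −0.19, so these counts hold an offset. The mutant's count of 227 fell to 122 and 104 without profiling replicate 1 or 2 at 25°C, and to 127 and 141 without RNA-seq replicate 2 at 25°C or at 37°C. The count of 335 in CDC33 cells fell to 187 without profiling replicate 1 at 25°C and to 148 without profiling replicate 2 at 37°C. GCN4 and PHB1 were among the 24 that were lower in the mutant, by −2.86 and −2.91. The 5 largest increases in the mutant were those of SNT1, PRM15, TMA108, LYS2 and DRE2, and the 5 largest decreases those of STE23, RTG2, MET18, HTS1 and PHB1, of which STE23, RTG2 and HTS1 were listed at 0 in both profiling samples of the mutant at 37°C. In CDC33 cells the 5 largest increases were those of VSB1, TGL4, MDM32, NUP84 and TRS120, and the 5 largest decreases those of UTP21, IDP1, ARP2, EMP47 and PLB3. With 0.1 added in place of 0.01, PRM15, STE23 and HTS1 did not pass in the mutant (adjusted p of 0.0606 to 0.0946) nor NUP84, UTP21, IDP1, ARP2 and EMP47 in CDC33 cells (0.0854 to 0.402), and with 0.001 SNT1 and MET18 (0.0844 and 0.0619) and MDM32 and ARP2 (0.0934 and 0.0927) did not. UTP21, IDP1 and EMP47 were listed at 0 in both CDC33 profiling samples at 37°C and ARP2 in 1, and PLB3 kept a decrease of −1.97 to −2.22 over the 3 constants.

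Sequence features that the completeness of the values did not use were then set beside density. Of the 1215 members found in RefSeq R64 (the other 3 are genes of the 2-micron plasmid), 413 or 34.0% have an ATG in the 100 genomic bases before the start codon, against 3131 of 6007 coding genes or 52.1%. The search was for the letters ATG on the strand of the gene, in any frame. The window has the same size for every gene, so it runs past a shorter leader and misses part of a longer one. Of the 266 members with a leader length, 37 had leaders of 0 to 49 nt and 65 of 50 to 99 nt. An ATG in this window therefore need not lie in the mRNA. Median profiling density was 0.185 over the 802 members without one, 0.0515 over 254 with 1 and 0.0399 over 159 with 2 or more, and the RNA-seq medians were 0.576, 0.398 and 0.269.

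Over the whole leader, the 2 kinds moved apart with temperature. Among the 266 members with a leader length, 100 hold an ATG in the whole leader. In CDC33 cells at 25°C the median of leaders with an ATG was 0.0248 and 0.0400 against 0.0392 and 0.0553 without, and at 37°C 0.0425 and 0.0520 against 0.0816 and 0.144. In the mutant it was 0.0461 and 0.0468 against 0.0898 and 0.0818 at 25°C, and 0.0876 and 0.0996 against 0.303 and 0.274 at 37°C.

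In all 8 samples genes with an ATG had the lower median by either window, and over the whole leader the gap was wider at 37°C in each strain. The log2 ratio of the 2 medians fell by 0.74 in the mutant and by 0.64 in CDC33 cells between the temperatures (−0.69 over both, exact permutation p = 0.0556, the smallest that 36 arrangements allow). With the last 100 bases of 1215 genes in place of the whole leader the change over both strains was −0.28 (exact permutation p = 0.389). The widening in the mutant was not seen there, where that log2 ratio was −2.50 and −2.21 at 25°C and −2.38 and −2.05 at 37°C, which overlap, while in CDC33 cells it was −1.14 and −1.73 at 25°C and −2.09 and −2.16 at 37°C. By those 100 genomic bases, the share of genes called as higher at 37°C in CDC33 cells was 17.7% without an ATG, 5.51% with 1 and 4.40% with 2 or more, against 13.5% over all. In the mutant it was 16.6%, 16.1% and 19.5%, against 16.8%.

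**Figure D5:**
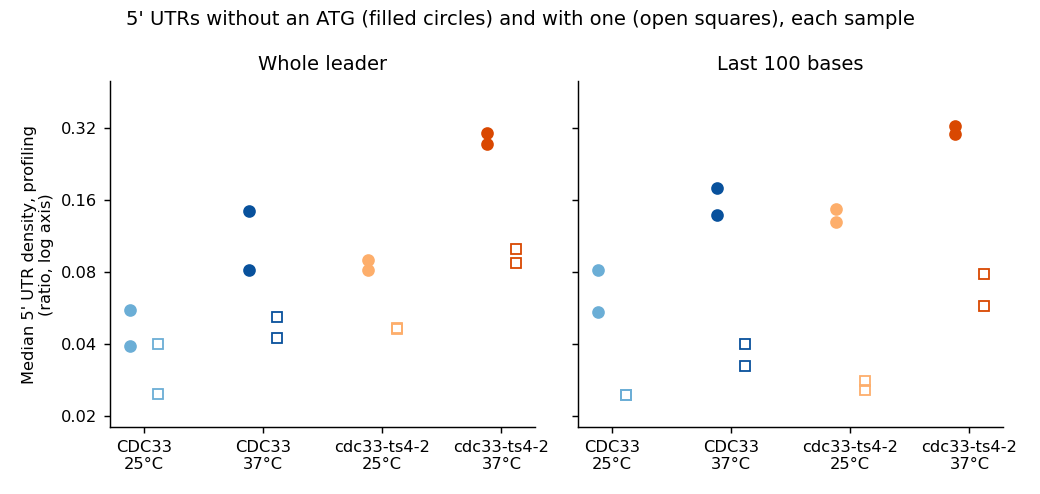
Median 5′ UTR density by ribosome profiling in each of 8 samples (log axis) for genes without an ATG (filled circles) and with at least 1 (open squares), searched in the whole leader (left, 266 genes) or in the last 100 bases before the start codon (right, 1215 genes; the 2 open squares of CDC33 at 25°C coincide). Circles lie above squares in every sample, and in the left panel the mutant at 37°C has 0.303 and 0.274 without an ATG against 0.0876 and 0.0996 with one.

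Coding length went with density as well. In 4 classes of coding length with about equal numbers of genes (78 to 900, 903 to 1449, 1452 to 2289 and 2292 to 14733 bases) median profiling density was 0.0208, 0.0891, 0.154 and 0.422, while RNA-seq medians were 0.254, 0.541, 0.629 and 0.523. Density was higher by profiling than by RNA-seq at 4.28%, 3.93%, 6.95% and 29.3% of genes in these classes, against 11.1% over all. Spearman's correlation across genes was 0.48 between coding length and profiling density (1215 genes) and 0.14 between coding length and RNA density, and 0.34 between leader length and the difference of the assays (266 genes), all from the same libraries and with no independent replicates.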

How the data were processed

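Per the labels and the paper's methods, the authors trimmed reads, aligned them with STAR 2.7.10b to R64-1-1, kept unique alignments with up to 2 mismatches for RNA-seq and 1 for profiling, and assigned them by strand with featureCounts to a feature covering at least 50% of the read. They deposited each 5′ UTR density as a ratio of its reads per length to the average coverage of the coding sequence, with UTRs from published annotations or a default of 120 nt, and coverage along genes as a signal relative to the gene. The paper also describes removing outlying values; no cell of a complete gene is blank. The authors report that fragments had neither the usual length nor an enriched frame, so leader reads were not assigned to a frame. Total counts per sample are not in the files used here, so the depth behind a density is unknown and no counting interval is given. Their deposited log2 fold changes and p-values were not used, and the mean signal of those tables served only as a measure of abundance. Of the columns of per-sample values 0 were left unmapped, and 4 further columns hold no value.

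Densities were analysed as log2(density + 0.01) with limma 3.58.1 in R 4.3.3 (group means, trended variance, Benjamini-Hochberg over 1218 genes, two-sided, adjusted p of 0.05 or less), on 8 profiling samples, on 12 RNA-seq samples, or on all 20 for differences between assays. A fold change on this scale understates that of low values. Errors are standard errors. Medians per sample were compared by exact permutation. Sequences come from RefSeq R64. Replicates of a group had Pearson correlations of 0.823 to 0.929 and no 2 samples were copies. Steps were tested on simulated data. Alternatives were other pseudocounts, filters, centring, a replicate block, 1 fit over all samples, and leaving out each sample.

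The members and gene lists were chosen with earlier results of these data known. Genes named were the 10 largest changes each way in the mutant by profiling, the 5 largest each way in the other comparisons, the 8 highest and 4 lowest densities, the uORF, non-ATG and cap-independent lists, CDC33, and up to 3 called members of other lists. The 20 genes over 1 in all profiling samples were named after their values were seen.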

Additional observations from a re-analysis of the deposited data

Results flagged for a closer look

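The change with temperature differed between the strains at 3 leaders by profiling (0.246% of 1218) and 12 by RNA-seq (0.985%), in the test of the difference itself (limma, Benjamini-Hochberg adjustment). Values are log2 changes in cdc33-ts4-2 minus those in CDC33 cells, and the cause of each was not tested.

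By profiling the difference was 6.61 for UTP21 (adjusted p = 0.0356), a factor of ribosome assembly that was listed at 0 in CDC33 cells at 37°C and had 0.502 and 0.286 in the mutant. It was 3.22 for IDP1 (adjusted p = 0.00119), a mitochondrial isocitrate dehydrogenase with 0.0848 and 0.0819 in CDC33 cells at 25°C and a listed 0 in the other 6 profiling samples, and 2.78 for MCY1 (adjusted p = 0.0356), with 0.0464 and 0.0733 in the mutant at 37°C and a listed 0 in the other 6. All 3 rest on a group listed at 0, so the sizes depend on the constant added before taking logs.

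By RNA-seq the differences were 3.56 for HRP1, 3.26 for RIM15, 3.16 for STO1, 2.68 for PHB1, 2.60 for PAN3 and 2.55 for CAR1. RIM15, a kinase of the entry into quiescence, went from 0.833, 0.872 and 0.938 to 5.02, 3.16 and 4.51 in the mutant and from 1.72, 1.84 and 1.49 to 1.09, 0.915 and 0.545 in CDC33 cells. STO1, the large subunit of the nuclear cap-binding complex, and PAN3, of a deadenylase, likewise had changes above 0 in the mutant (1.48 and 1.38) and below 0 in CDC33 cells (−1.68 and −1.23). The differences were 2.42 for VSB1, 1.78 for YHB1, 1.60 for BRE5, 1.53 for RAP1, 1.46 for YGL140C and 1.23 for HTB2. The adjusted p-values of the 12 ran from 0.00265 to 0.041, and 156 genes had an unadjusted p below 0.05. The count was 3 without replicate 2 or 3 of the mutant at 25°C, 4 without its replicate 1 at 37°C, 6, 7 and 5 without replicates 1, 2 and 3 of CDC33 cells at 25°C, and 6 without their replicate 2 at 37°C. For RAP1 the change was −0.05 in the mutant and −1.58 in CDC33 cells. Groups of 2 and 3 samples are too small for a rule on single outlying samples.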

How the results depend on the processing

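Counts of leaders past the threshold moved with several choices. With a pseudocount of 0.001 they were 18 between strains at 25°C, 5 for the difference between strains by profiling and 4 for RNA in CDC33 cells; with 0.1 they were 380 for the mutant by profiling, 1 for the difference between strains by profiling and 212 for profiling less RNA in CDC33 cells. A mean profiling density of at least 0.01 left 1 difference between strains by profiling, and over genes with a mean density of at least 0.01 the RNA median changed by −0.0036 with temperature, a reversed sign near 0. Subtracting each sample's median gave 16 in CDC33 cells by profiling, 30, 4 and 3 by RNA-seq in the mutant, in CDC33 cells and for their difference, and 134 for profiling less RNA in CDC33 cells. One fit over all 20 samples gave 467, 404, 272 and 36 by profiling (mutant, CDC33, strains at 25°C, difference) and 4 and 7 by RNA-seq (CDC33, difference).

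After seeing the data, genes were limited to a mean count of at least 1000, which gave 92 in CDC33 cells by profiling, 13 between strains at 25°C, 652 between assays, 185 for profiling less RNA in CDC33 cells, and 20, 4 and 0 by RNA-seq (mutant, CDC33, difference), on fewer genes tested. Limited to genes above 0 in every sample, counts were 406, 328, 111 and 0 by profiling and 3 by RNA-seq in CDC33 cells. Both counts of 0 are differences between strains by limma, for which 156 (RNA-seq) and 131 (profiling) of all genes had an unadjusted p below 0.05.

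The paper describes splitting cultures between the temperatures, and the labels do not say whether a shared replicate number marks a shared culture. Deviations of same-numbered samples correlated at −0.0684 to 0.00815 by profiling and −0.104 to 0.159 by RNA-seq, with 2 of 18 pairs over 0.1. With 2 profiling samples a group the value is the same for both numbers, so these correlations cannot show that samples were unpaired. The main tests did not use pairs. With the replicate block, counts were 150, 113, 2 and 1 by profiling, 42, 4 and 6 by RNA-seq, and 968, 186 and 312 between assays.

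Leaving out each sample gave 0 to 328 in the mutant and 6 to 293 in CDC33 cells by profiling, 2 to 227 between strains at 25°C, 1 to 6 for the difference, 30 to 46, 4 to 9 and 3 to 12 by RNA-seq, 1043 to 1065 between assays, and 104 to 280 and 148 to 414 for profiling less RNA in mutant and CDC33 cells. The log2 ratio of medians ranged from 1.09 to 1.31 for temperature and 0.77 to 0.98 for strain by profiling, from −0.066 to 0.061 for temperature by RNA-seq, and the gap of leaders with an ATG from −0.82 to −0.56.

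For 111 called results, each a gene in 1 comparison, 2192 values were recomputed, of which 1639 kept their call, 549 lost it and 4 changed sign. Of the 111, 23 lost their call with a pseudocount of 0.001 and 13 with 0.1. With each sample's median subtracted, log2 changes in the mutant were −0.86 for YAP1, −0.36 for SCH9, −1.24 for HOL1, −0.22 for GRS1, −0.83 for URE2, −0.39 for EFB1, −0.36 for RPS25B, −0.069 for SDH1 and −0.29 for CDC33, and in CDC33 cells −0.070 for YAP1 and −0.10 for HOL1. The median over all members in this setting was −0.47 in the mutant and −0.13 in CDC33 cells. Leaving out each sample gave −0.20 to 0.27 for HOL1 and −2.08 to 1.20 for TIF4631 in the mutant, and TIF4631 had 0.045 with a pseudocount of 0.1. The causes were not tested beyond what each setting changes.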
